A study of Homo sapiens with 2 samples.

Results

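Integrins, laminins and the proteins of focal adhesions are described here in AGS cells, an established human gastric adenocarcinoma line, after 24 h with 100 nM LBH589 and without treatment. LBH589 (panobinostat) inhibits histone deacetylases of several classes. The genes were chosen by symbol: every ITGA, ITGB, LAMA, LAMB or LAMC symbol listed alone for a probe set, and 12 named adaptors and kinases. Probe sets listing several symbols were left out, and ITGA1 is not among the genes chosen. This gave 55 of 33297 probe sets and 54 of 20235 genes, with PXN represented by 2 probe sets. There was 1 array from LBH589-treated cells and 1 from control cells. The treatment of the control cells is given as none, while the title of that sample reads control treated. No vehicle or culture time is stated for the control cells. No difference below therefore has a replicate, an error or a test, and the number of arrays limits the precision.

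Integrins are receptors made of an alpha and a beta subunit that bind the extracellular matrix outside the cell and, through adaptors, actin filaments inside it. Laminins are trimers of an alpha, a beta and a gamma chain and are the main adhesive proteins of the basement membrane under epithelia. Talins and kindlins bind the tails of beta subunits and switch integrins on, while the complex of ILK, PINCH and parvin, together with vinculin, paxillin and zyxin, ties them to actin. Epithelial cells hold on to laminin through alpha3 beta1 and alpha6 beta1 in focal adhesions and through alpha6 beta4 in hemidesmosomes, where the link is to keratin filaments.

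Values are deposited intensities on a linear scale, and ratios are log2 of LBH589 over control. A floor of 2.95, percentile 20 of the table's intensities, replaced any lower value, and genes that reached it on their brighter array count as detected. Background is an intensity of 4.75, percentile 95 of 450 olfactory receptor probe sets by their brighter array, taken as genes these cells are not thought to use. A gene is called higher or lower at 2-fold or more, by size alone. The arrays were close in scale, with median intensities of 4.77 (LBH589) and 4.84 (control). As a guide to the error within an array pair, 354 genes had 2 probe sets that reached background and were not identical in values. Their 2 log2 ratios were apart by 0.14 at the median and 0.77 at percentile 90. Genes below background are not covered by this guide. All 7 epithelial markers reached background, 6 of them within 2-fold, and their median log2 ratio was -0.02. KRT8 had intensities of 2292 with LBH589 and 1967 in control, and KRT18 had 632 with LBH589 and 634 in control. KRT19 was 2.07-fold higher, with 1171 with LBH589 and 566 in control, while EPCAM was 1.71-fold lower, with 337 with LBH589 and 577 in control. Of 6 leukocyte markers 2 reached background, of 6 fibroblast markers 1, of 4 endothelial markers none and of 3 platelet markers 1. PTPRC, the general leukocyte marker, had 2.95 with LBH589 and 2.76 in control, while the leukocyte actin regulator CORO1A had 25.4 with LBH589 and 6.38 in control. The 6 leukocyte markers summed to intensities of 44.1 with LBH589 and 25.3 in control, and the part of this in the results was not tested.

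LBH589-treated cells had less mRNA for 9 of the 54 genes at 2-fold or more, and none of the 54 was 2-fold higher. The lower genes were the laminin chains LAMB1 and LAMC1, the integrin subunits ITGA2, ITGAV, ITGB4, ITGB5 and ITGB6, the kindlin FERMT1 and the parvin PARVA. Of all 18769 detected genes, 4.86% were 2-fold lower and 4.90% were 2-fold higher, and 52 of the 54 genes passed the same detection filter. The median log2 ratio was -0.17 over all 54 genes and 0.00 over all detected genes. Ratios were below 0 for 38 of the 54, above 0 for 13 and at 0 for 3. Of the genes described here, 36 reached background on at least 1 array. Among the 12782 genes of the whole table that did so, 7.14% were 2-fold lower and 7.19% were 2-fold higher. In a bulk sample, less RNA per cell and fewer cells expressing a gene cannot be told apart.

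**Figure D1:**
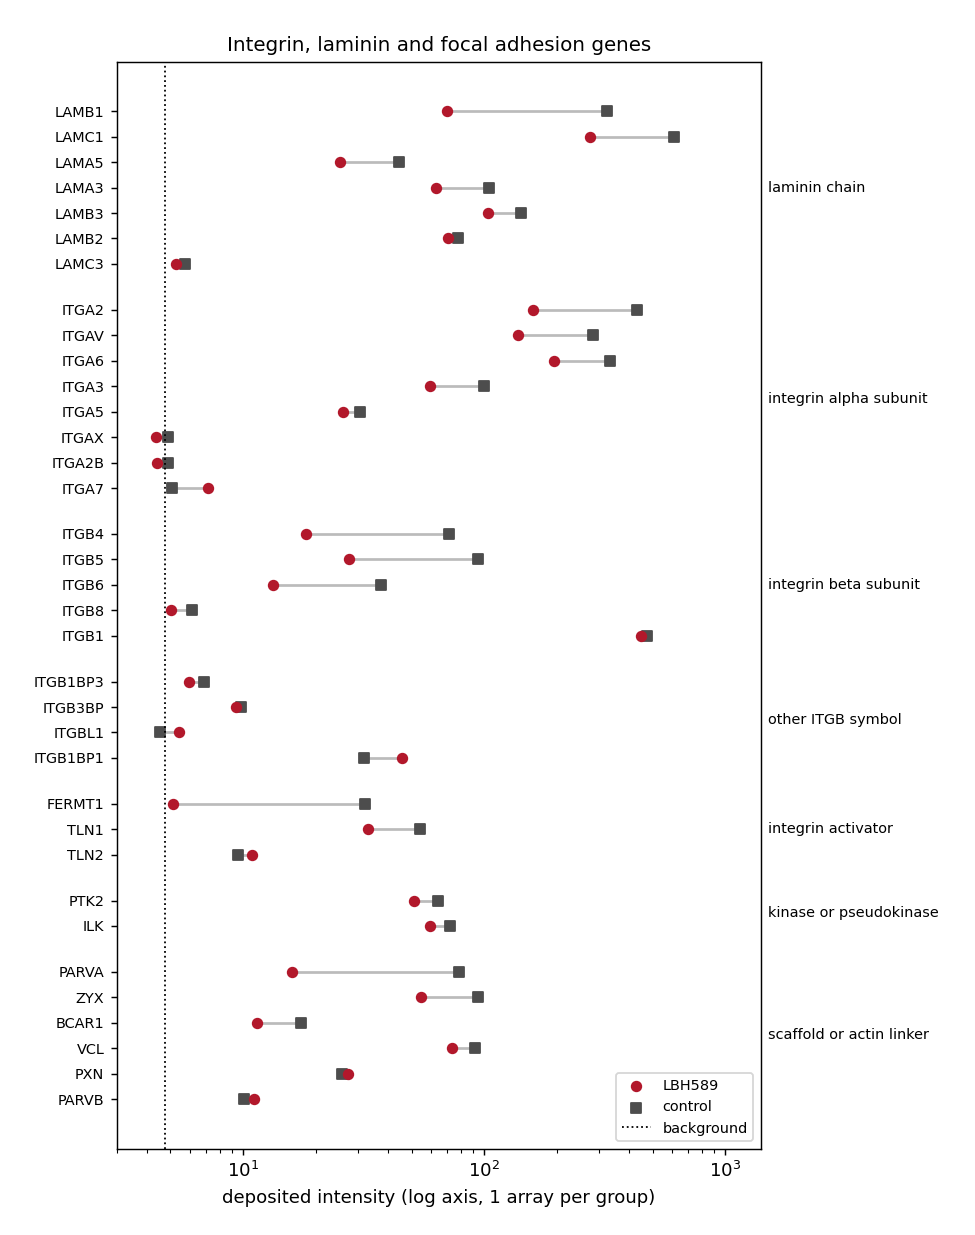
Deposited intensity (log axis) of the genes that reached background, grouped by role, with 1 of the 36 not drawn, with circles for the LBH589 array, squares for the control array and a dotted line at background (4.75). The LBH589 circle lies left of the control square for all laminin chains and beta subunits drawn, by little for ITGB1, and right of it for ITGA7, ITGBL1, ITGB1BP1, TLN2, PXN and PARVB.

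**Figure D2:**
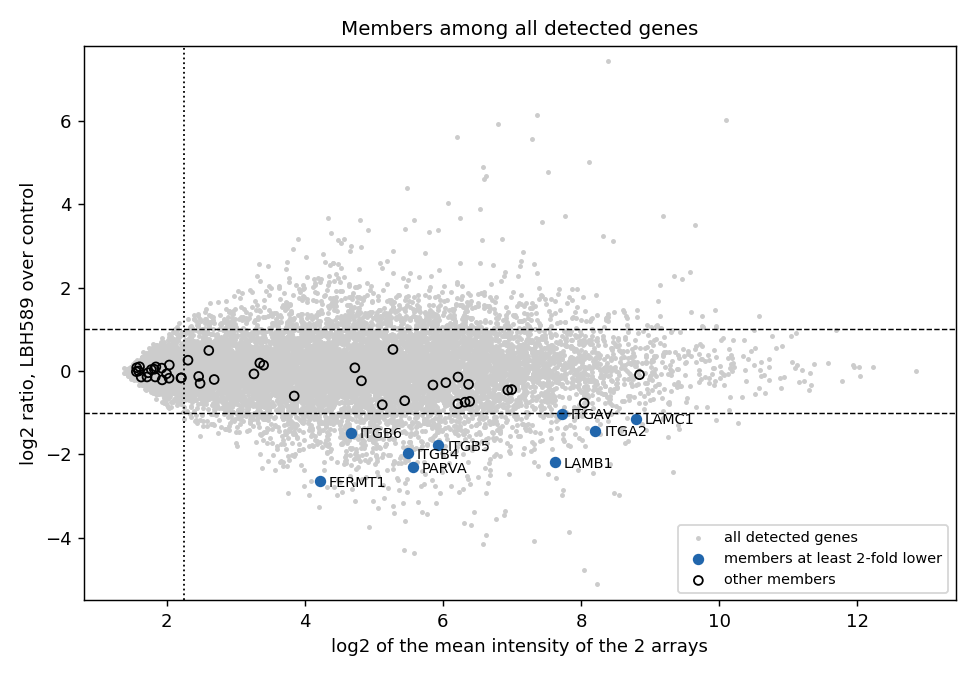
Log2 ratio of LBH589 over control against the log2 mean intensity of both arrays for 18769 detected genes (grey) and the detected integrin, laminin and focal adhesion genes (blue where at least 2-fold lower, open otherwise). Dashed lines mark 2-fold and the dotted line marks background; the 9 blue points lie between log2 ratios of -2.65 and -1.03, and no open point lies above the upper dashed line.

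Among the laminins, 2 of 12 chains were 2-fold lower, against 4.86% of all detected genes. The 8 chains that reached background all had the lower intensity on the LBH589 array. LAMB1, the beta chain of laminins found in most basement membranes, had an intensity of 70.4 with LBH589 and 322 in control, which is 4.58-fold lower. LAMC1, the gamma chain shared by most laminins, had 275 with LBH589 and 611 in control, 2.22-fold lower. These chains assemble with LAMA5 into laminin-511, and LAMA5 had 25.3 with LBH589 and 44.3 in control, a log2 ratio of -0.81. All chains of laminin-511 were thus lower, but by unequal amounts, with a spread of 1.39 in log2 ratio.

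LAMA3 and LAMB3, chains of laminin-332, the anchoring laminin of epithelia, differed less between the arrays, and neither reached 2-fold. LAMA3 had 63.0 with LBH589 and 104 in control, and LAMB3 had 103 with LBH589 and 142 in control. Their log2 ratios were -0.73 for LAMA3 and -0.46 for LAMB3. LAMB2, the beta chain that replaces LAMB1 in laminin-521, had 70.7 with LBH589 and 78.2 in control. The log2 ratio of LAMB1 differed from that of LAMB2 by -2.05 and from that of LAMB3 by -1.74. LAMC3, a less common gamma chain, was near background with 5.27 with LBH589 and 5.76 in control. LAMA1, LAMA2, LAMA4 and LAMB4 were below background on both arrays.

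Of the 17 alpha subunits chosen, 2 were 2-fold lower, against 4.86% of all detected genes, and 8 reached background. ITGA2, which pairs with beta1 into a receptor for collagens and laminins, had 160 with LBH589 and 431 in control, 2.69-fold lower. ITGAV, the alpha subunit of receptors for vitronectin and for latent TGF-beta, had 139 with LBH589 and 284 in control, 2.05-fold lower, close to the size that makes a call. The laminin-binding subunits came next. ITGA6 had 195 with LBH589 and 333 in control, and ITGA3 had 59.6 with LBH589 and 100.1 in control, with log2 ratios of -0.77 and -0.75. ITGA5, which with beta1 forms the classical fibronectin receptor, had 26.0 with LBH589 and 30.5 in control.

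The other alpha subunits gave weak signals. ITGA7, a laminin receptor subunit of muscle, had 7.14 with LBH589 and 5.07 in control, the highest log2 ratio among alpha subunits at 0.49. ITGAX and ITGA2B, subunits of leukocytes and platelets, were near background, with 4.35 and 4.38 with LBH589 and 4.88 and 4.90 in control. Of 8 integrin genes used mainly by leukocytes (ITGAL, ITGAM, ITGAX, ITGAD, ITGAE, ITGA4, ITGB2 and ITGB7), ITGAX alone reached background. ITGA8, ITGA9, ITGA10 and ITGA11 were below it on both arrays.

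The beta subunits were split. ITGB1, the partner of most alpha subunits, had 446 with LBH589 and 474 in control, a log2 ratio of -0.09. ITGB4, the hemidesmosome subunit that pairs with alpha6 alone, had 18.3 with LBH589 and 71.5 in control, 3.92-fold lower. ITGB5, an alphaV partner that binds vitronectin, had 27.6 with LBH589 and 94.7 in control, 3.43-fold lower. ITGB6, an alphaV partner restricted to epithelia that activates latent TGF-beta, had 13.3 with LBH589 and 37.4 in control, 2.81-fold lower. On the log2 scale, ITGB4, ITGB5 and ITGB6 differed from ITGB1 by -1.88, -1.69 and -1.40. ITGB8, another alphaV partner, was near background with 5.02 with LBH589 and 6.17 in control, and ITGB2, ITGB3 and ITGB7 were below background on both arrays. ITGB2 and ITGB7 are leukocyte subunits, and ITGB3 is best known from platelets.

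Read by receptor, the fibronectin receptor alpha5 beta1 had both subunits within 2-fold, and so had the laminin receptors alpha3 beta1 and alpha6 beta1. In alphaV beta5 and alphaV beta6 both subunits were 2-fold lower, and both readings use the same ITGAV value, which was close to the size of a call. In alphaV beta1 and alphaV beta8 the alpha subunit alone reached 2-fold, with log2 ratios of -0.09 for ITGB1 and -0.30 for ITGB8. With 50 added, ITGAV, ITGB5 and ITGB6 were all short of 2-fold. In alpha2 beta1 the alpha subunit alone reached 2-fold, with a difference of -1.34 in log2 ratio between ITGA2 and ITGB1. In alpha6 beta4 the beta subunit alone reached 2-fold, while ITGA6 was lower by less, with a difference of -1.20 between ITGB4 and ITGA6. These are mRNA values, and how much of each receptor was assembled was not measured.

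**Figure D3:**
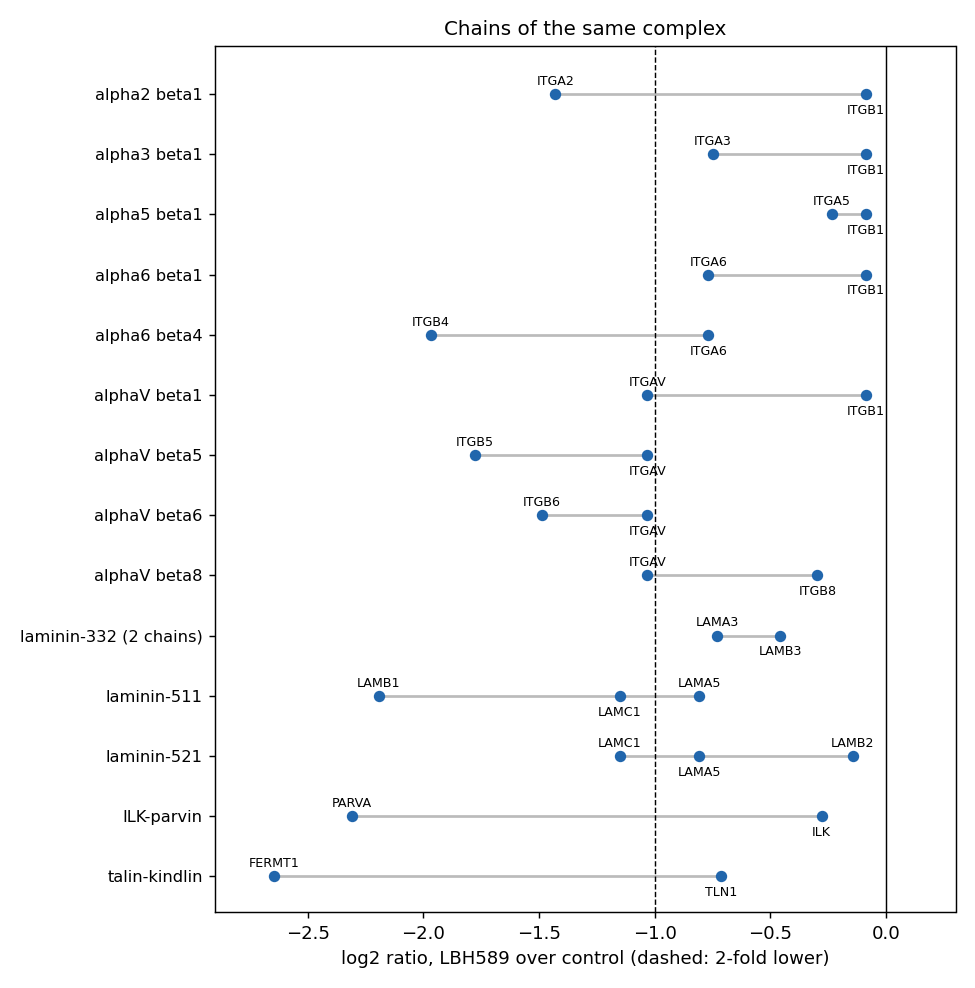
Log2 ratio of LBH589 over control (x axis) for chains of 9 integrins, 3 laminins (2 chains of laminin-332) and 2 pairs of adaptors that act together, 1 point per gene and a grey line from the lowest to the highest. The dashed line marks 2-fold lower; both points of alphaV beta5 and alphaV beta6 lie left of it, while both points of alpha5 beta1 and both points of laminin-332 lie right of it.

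Promoter sequences are printed for 4 genes: the lower laminin pair LAMB1 and LAMC1, the lower subunit ITGB5, and ITGB1, which was close to equal on both arrays. Each is the 250 bases before the annotated start in RefSeq GRCh38.p14, 5′ to 3′ on the strand of the gene, at chr7:108003162-108003411 (minus strand), chr1:183023170-183023419 (plus strand), chr3:124901419-124901668 (minus strand) and chr10:32958231-32958480 (minus strand) in the order of the lines. Capitals mark matches, on either strand, to the GC box with letters GGGCGG, the AP-1 motif with letters TGANTCA, the TEAD motif with letters GGAATG, the letters TATAAA of a TATA box, or the CArG box, and overlapping copies were counted separately.
LAMB1: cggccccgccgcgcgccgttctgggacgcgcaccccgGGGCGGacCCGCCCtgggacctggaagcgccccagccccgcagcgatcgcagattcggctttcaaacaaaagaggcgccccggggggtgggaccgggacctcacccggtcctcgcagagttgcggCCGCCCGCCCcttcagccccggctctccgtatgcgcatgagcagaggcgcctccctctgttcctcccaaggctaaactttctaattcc
LAMC1: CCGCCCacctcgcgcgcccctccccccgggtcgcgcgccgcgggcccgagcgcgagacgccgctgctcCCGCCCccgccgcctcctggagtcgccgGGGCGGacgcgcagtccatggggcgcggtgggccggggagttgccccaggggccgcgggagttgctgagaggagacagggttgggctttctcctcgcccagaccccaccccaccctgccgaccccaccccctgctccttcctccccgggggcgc
ITGB5: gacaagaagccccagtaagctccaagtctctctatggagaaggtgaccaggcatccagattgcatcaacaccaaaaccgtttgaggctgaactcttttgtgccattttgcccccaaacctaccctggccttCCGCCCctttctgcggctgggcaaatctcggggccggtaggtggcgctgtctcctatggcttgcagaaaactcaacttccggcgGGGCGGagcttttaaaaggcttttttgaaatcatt
ITGB1: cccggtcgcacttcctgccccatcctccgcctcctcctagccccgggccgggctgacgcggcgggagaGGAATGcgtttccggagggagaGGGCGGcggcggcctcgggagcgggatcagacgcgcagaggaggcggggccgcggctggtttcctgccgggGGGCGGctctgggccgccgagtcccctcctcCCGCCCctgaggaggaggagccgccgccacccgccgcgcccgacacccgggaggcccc
The GC box was found 4 times for LAMB1, 3 times for LAMC1, 2 times for ITGB5 and 3 times for ITGB1, and ITGB1 also held a TEAD match. Of the 54 genes, 39 matched a RefSeq promoter, among them 6 of the 9 lower genes (ITGA2, ITGAV, ITGB5, ITGB6, LAMB1 and LAMC1). The GC box was in 4 of these 6 and in 16 of 21 matched genes that reached background and stayed within 2-fold, against 42.6% of all 35114 promoters. AP-1, TEAD and TATAAA matches were in none of the 6 and in 2, 3 and 2 of the 21, against 6.57%, 11.9% and 10.7% of all promoters. The CArG box was in 1 of the 6, ITGB6, in 2 of the 21 and in 1.16% of all promoters. The GC content of the 250 bases had a median of 70.6% in the 6 lower genes, 70.0% in the 21 and 58.0% in all promoters. The set of all promoters was not limited to 1 per gene or to genes that reached background, so it is unlike the 6 and the 21.

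Among the proteins that switch integrins on, FERMT1 had the lowest log2 ratio of all 54 genes. FERMT1, kindlin-1, the kindlin of epithelial cells, had 5.11 with LBH589 and 32.0 in control, 6.27-fold lower, so that the LBH589 signal was just above background. FERMT2, the broadly expressed kindlin, was below background with the same intensity of 2.66 on both arrays. TLN1, the general talin, had 33.0 with LBH589 and 54.1 in control, a log2 ratio of -0.71. TLN2, its paralogue of muscle and brain, had 10.9 with LBH589 and 9.51 in control.

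In the complex of ILK, PINCH and parvin the parvin stood apart. PARVA, alpha-parvin, had 15.9 with LBH589 and 78.9 in control, 4.96-fold lower. ILK, the pseudokinase that parvin binds, had 59.5 with LBH589 and 72.2 in control, and the PINCH gene LIMS1 had 84.5 with LBH589 and 119 in control. The paralogue PARVB had 11.1 with LBH589 and 10.1 in control. On the log2 scale PARVA differed from ILK by -2.03 and from PARVB by -2.45.

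None of the kinases and other scaffolds reached 2-fold. PTK2, focal adhesion kinase, had 51.2 with LBH589 and 64.6 in control. ZYX (zyxin), which gathers at strained actin fibres, had 54.6 with LBH589 and 94.1 in control, a log2 ratio of -0.79. BCAR1 (p130Cas), a scaffold phosphorylated by SRC and focal adhesion kinase, had 11.4 with LBH589 and 17.3 in control. VCL (vinculin), which couples talin to actin, had 73.6 with LBH589 and 91.9 in control. PXN (paxillin) had 27.1 with LBH589 and 25.7 in control. A dimmer probe set of PXN, near background, had 4.06 with LBH589 and 4.96 in control.

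The symbol rule also caught 5 genes that are not subunits. ITGB1BP1, ICAP-1, which binds the beta1 tail and holds integrins inactive, had the highest log2 ratio of all 54 genes at 0.52, with 45.6 with LBH589 and 31.9 in control. ITGB3BP, a kinetochore protein despite its name, had 9.37 with LBH589 and 9.83 in control. ITGB1BP3, now NMRK2, a nicotinamide riboside kinase, had 5.99 with LBH589 and 6.90 in control, and the secreted ITGBL1 had 5.40 with LBH589 and 4.51 in control. ITGB1BP2 (melusin), a muscle protein, was below background on both arrays. In all, 18 of the 54 genes were below background on both arrays, with intensities from 2.66 to 4.34 and log2 ratios from -0.21 to 0.14.

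Related genes outside the symbol rule went both ways. Of 59 other adaptors and signalling genes, 7 were 2-fold lower and 6 were 2-fold higher, with a median log2 ratio of 0.02. Among all detected genes, 4.86% were 2-fold lower and 4.90% were 2-fold higher. PHLDB2, which anchors microtubules near focal adhesions, had 14.9 with LBH589 and 69.3 in control, 4.65-fold lower. The tensin TNS3 had 13.0 with LBH589 and 43.1 in control, the kinase PAK2 had 14.8 with LBH589 and 46.1 in control, and the actin cross-linker ACTN1 had 182 with LBH589 and 438 in control. In the other direction, RSU1, which binds PINCH, had 186 with LBH589 and 72.8 in control, 2.55-fold higher. With 50 added to every intensity, ACTN1 stayed 2-fold lower with a log2 ratio of -1.07, while RSU1 (0.94), PHLDB2 (-0.88), PAK2 (-0.57) and TNS3 (-0.56) were short of 2-fold. RHOA (1349 with LBH589, 643 in control) and GRB2 (119 with LBH589, 50.3 in control) were also 2-fold higher. So were ELMO2 (70.9 with LBH589, 31.8 in control) and GIT2 (39.8 with LBH589, 19.9 in control). DOCK1 (13.4 with LBH589, 29.3 in control), LPP (22.7 with LBH589, 53.2 in control) and TNS4 (110 with LBH589, 229 in control) were also 2-fold lower. For these further genes, ratios with 50 added are not given.

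Of 26 ligands and basement membrane genes, 6 were 2-fold lower and 2 were 2-fold higher, with a median log2 ratio of -0.08. The shares over all detected genes were 4.86% lower and 4.90% higher. The lower ones included other parts of the basement membrane. HSPG2 (perlecan) had 33.2 with LBH589 and 87.4 in control, the collagen gene COL4A5 had 7.43 with LBH589 and 26.1 in control, and the netrin NTN4 had 7.57 with LBH589 and 18.5 in control. NID1 (nidogen), which links laminin to collagen IV, had 4.19, below background, with LBH589 and 8.54 in control. Its place among the 6 rests on the value below background, and set against the background level it was at least 1.80-fold lower, short of 2-fold. The higher ones were the matricellular integrin ligands CYR61 (now CCN1), with 181 with LBH589 and 30.8 in control, 5.86-fold higher, and CTGF (now CCN2), with 574 with LBH589 and 232 in control, 2.48-fold higher. With 50 added, CYR61 and CTGF stayed 2-fold higher, while HSPG2, COL4A5, NTN4 and NID1 were short of 2-fold. FN1 (fibronectin) was below background on both arrays.

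Of 19 hemidesmosome and laminin receptor partners, 5 were 2-fold lower and none was 2-fold higher, with a median log2 ratio of -0.42. The shares over all detected genes were again 4.86% lower and 4.90% higher. The tetraspanin TSPAN8 had 200 with LBH589 and 1083 in control, 5.41-fold lower. CD151, the tetraspanin that binds the laminin-binding integrins, had 102 with LBH589 and 271 in control, 2.66-fold lower. The other tetraspanins of the list were within 2-fold. CD9 had 814 with LBH589 and 856 in control, and TSPAN4 had 20.2 with LBH589 and 22.5 in control. CD81 had 698 with LBH589 and 438 in control, and CD82 had 27.0 with LBH589 and 14.1 in control. DST, which encodes the hemidesmosome plakin BPAG1 among other isoforms, had 9.67 with LBH589 and 22.0 in control, 2.27-fold lower, and the probe set was not tied to an isoform. SDC1 (syndecan), a matrix receptor, had 29.7 with LBH589 and 72.5 in control, and CD44, the hyaluronan receptor, had 13.3 with LBH589 and 32.2 in control. With 50 added, TSPAN8 and CD151 stayed 2-fold lower, while SDC1, CD44 and DST were short of 2-fold. PLEC (plectin), the other plakin that holds alpha6 beta4, had 81.8 with LBH589 and 92.3 in control. Some further genes of the lists bind laminin without integrins. Among them, DAG1 had 115 with LBH589 and 156 in control, and BCAM had 82.8 with LBH589 and 51.0 in control. RPSA had 222 with LBH589 and 324 in control, and AGRN had 60.6 with LBH589 and 66.9 in control.

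**Figure D4:**
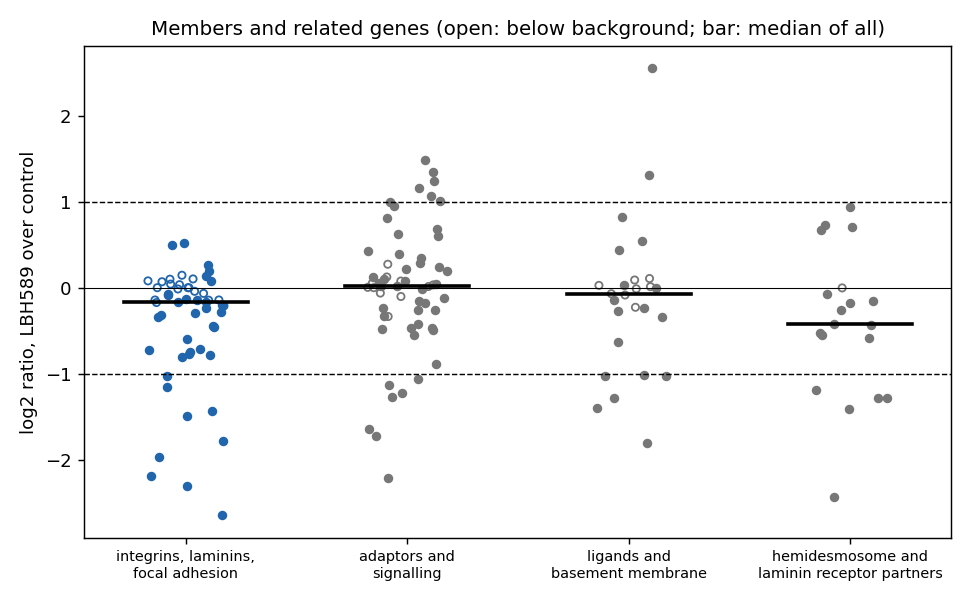
Log2 ratio of LBH589 over control (y axis) for the 54 integrin, laminin and focal adhesion genes (blue) and 3 lists of related genes (grey), 1 point per gene, open where below background on both arrays, with a bar at the median of each list and dashed lines at 2-fold. No blue point lies above the upper dashed line, whereas the adaptor list has 6 points above it and 7 below the lower one.

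The size of the differences depended on how dim signals were treated. With 50 added to every intensity, LAMB1, ITGA2 and LAMC1 were still 2-fold lower, with log2 ratios of -1.63, -1.20 and -1.02. The other 6 were then short of 2-fold, from -0.97 for PARVA to -0.47 for ITGB6, with FERMT1 at -0.57. By that measure 0.778% of all detected genes were 2-fold lower. With intensities raised to a floor of 16, all 9 were 2-fold lower, FERMT1 by the least, against 3.29% of all detected genes.

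**Figure D5:**
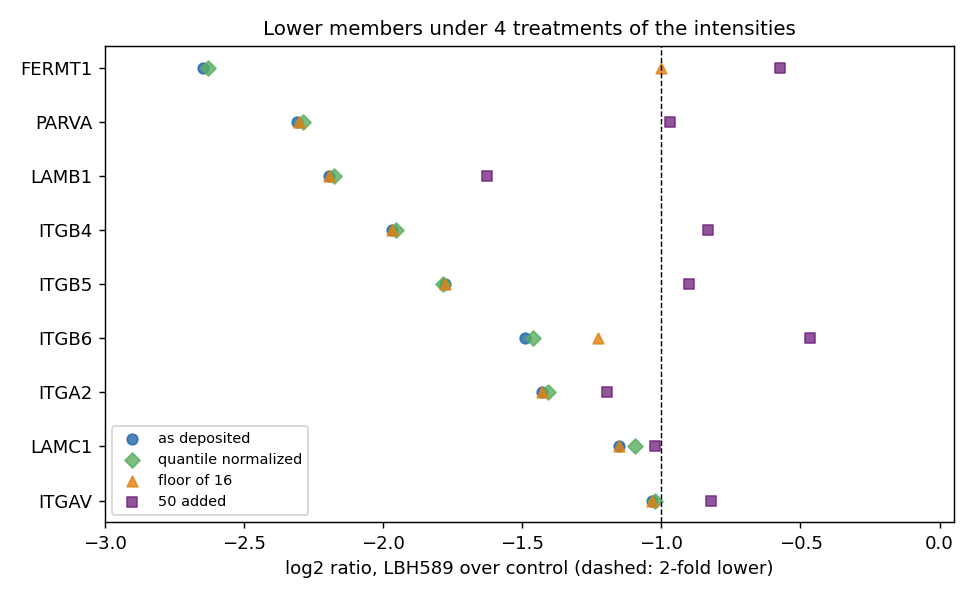
Log2 ratio of LBH589 over control (x axis) of the 9 lower genes with the intensities as deposited, quantile normalized, raised to a floor of 16, and with 50 added. With 50 added (squares), LAMB1, ITGA2 and LAMC1 lie left of the dashed 2-fold line, and the other markers lie at or left of it for every gene.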

How the data were processed

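AGS total RNA was biotin-labelled by an Affymetrix one-cycle procedure, per the labels' protocols. The deposited intensity values, 1 column for each array, come from gene-level RMA, per the file headers, while the submitters' processing notes name MAS5. For the array design, software versions and build: not given in the sources used here. The fold ratio deposited by the authors equals LBH589 over control intensity in all 33297 rows within 1e-06. The series' value table holds the same intensities in every row.

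The column naming the drug was taken as LBH589 and the one marked negative as control. Probe sets with exactly 1 symbol were named through RefSeq GRCh38.p14: 18255 by accession, 1113 by symbol, 1037 by an older symbol, with 1459 kept as listed. The brightest probe set stands for a gene. With 1 array per group no test was made. Every integrin, laminin or focal adhesion gene reaching background is named with values, and related genes past 2-fold are named up to 6 a list, except 1 gene of each kind that is counted but not reported here by name. The rest of the adaptor list past 2-fold was added to show both directions. Some others of the lists are named because they belong to a complex described or bind one, or to the family of a named gene. The genes, lists and background level were chosen with earlier results of these data known. Ratio steps were tested on simulated data with changes well past 2-fold planted in brighter genes, which checks the calculation and not the results. Python 3.11.15, numpy 2.4.6, pandas 2.3.3 and matplotlib 3.10.9 were used. Alternatives were quantile normalization, centring, 50 added, floors at 16 and at background, other filters, the median over probe sets, the deposited fold, the value table, and sizes of 1.5-fold and 3-fold.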

Additional observations from a re-analysis of the deposited data

How the results depend on the processing

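The count of 9 lower genes was unchanged under quantile normalization, centring and a floor of 16. A floor or filter at background, no filter, the median over probe sets, the deposited fold and the value table also gave 9. These could not have changed the count. All 9 were above background on both arrays, and the 2 undetected genes had ratios of 0. Both PXN probe sets were within 2-fold, and the deposited fold and value table hold the same numbers. The count was 3 with 50 added, 16 at a size of 1.5-fold and 5 at 3-fold, where 0.778%, 10.5% and 1.74% of all detected genes were lower, in that order. None of the 54 genes was called higher under any of these alternatives. The median log2 ratio was -0.019 with 50 added, 0.00 with a floor of 16 and -0.39 over the 36 genes that reached background. Of 350 values of named genes under alternatives, 344 stayed on their side of 2-fold. The other 6 did not, all with 50 added, which shrinks ratios of dim genes by construction. Many of the 344 could not have moved. The deposited fold, the value table and the filters leave each ratio as it was, and the median over probe sets can alter PXN alone. Of the 16 related genes named by size of ratio, 5 stayed past 2-fold with 50 added. With 1 array per group, the spread between cultures is unknown. No paired analysis was possible because each group has a single array.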

Other observations

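Genes whose description in the table mentions integrins, and which the symbol rule does not catch, were looked up after the values were known. ITFG3, now FAM234A, a membrane protein with integrin alpha-like repeats in its description, had 109 with LBH589 and 36.4 in control, a log2 ratio of 1.59. Its namesakes by description were within 2-fold: ITFG1 had 96.9 with LBH589 and 78.4 in control, and ITFG2 had 16.7 with LBH589 and 26.0 in control. CIB1, a calcium sensor that binds integrin alpha tails, had 45.5 with LBH589 and 30.0 in control. ILKAP, a phosphatase that binds ILK, had 6.95 with LBH589 and 8.70 in control.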
